A study of Mus musculus with 48 samples.

Results

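The enzymes of fatty acid synthesis and elongation were followed through 48 h of circadian time in mouse liver. The set holds 10 of the 18194 genes that the array annotation names singly: Acly, Me1, Acaca, Acacb, Fasn, Thrsp, Scd1, Elovl6, Elovl3 and Elovl5. They were chosen for their role in making and lengthening fatty acids, by gene symbol, and all of their 24 probe sets (groups of short probes for 1 transcript) among the 45101 on the array were tested without a filter on low values. Liver was taken every hour from CT18 to CT65 from wild-type, 6-week-old male C57BL/6J mice, which had been held in 12 h light and 12 h dark for a week and were then kept in complete darkness. CT is circadian time, with subjective dawn at CT0 and subjective dusk at CT12, and the night is the active phase of a mouse. RNA of 3 to 5 mice was pooled at each hour and read on 1 Affymetrix mouse array, so there was no replicate within an hour, and the spread of the pools around a fitted curve stands in for replicate error. CT42 to CT65 make up the second cycle and CT18 to CT41 the first.

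Fatty acids are built in the cytosol. Citrate exported from mitochondria is split into acetyl-CoA by ATP citrate lyase (Acly), acetyl-CoA carboxylase turns acetyl-CoA into malonyl-CoA, and fatty acid synthase (Fasn) joins malonyl units into palmitate with NADPH that comes in part from malic enzyme (Me1). Palmitate is then lengthened by elongases of the endoplasmic reticulum (Elovl genes) and made unsaturated by stearoyl-CoA desaturase (Scd1). In liver these genes are known as targets of insulin and carbohydrate signals through SREBP-1c (Srebf1) and ChREBP (Mlxipl), and the liver clock and the hours of feeding both act on them.

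RefSeq's table of regions around gene starts (build GRCm38.p6) held 9 windows for 8 of the 10 genes. Scd1 and Elovl3 were not matched. For the 4 genes below the window ends just before the first annotated start of the gene, and these genes are shown because their peak times, given further on, spread from early night to early day. Each line gives the 250 bases before the start, 5′ to 3′ on the strand of the gene. Capitals mark, on either strand, the E-box CACGTG that clock factors can bind, the CCAAT box, the GC box GGGCGG, and AGGTCA, the core of nuclear receptor sites.
Elovl6 (chr3:129532136-129532385, plus strand): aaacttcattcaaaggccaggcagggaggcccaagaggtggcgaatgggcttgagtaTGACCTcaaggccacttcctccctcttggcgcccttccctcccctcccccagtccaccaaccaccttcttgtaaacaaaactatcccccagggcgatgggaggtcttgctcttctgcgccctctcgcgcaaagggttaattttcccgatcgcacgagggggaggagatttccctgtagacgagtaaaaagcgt
Thrsp (chr7:97417551-97417800, minus strand): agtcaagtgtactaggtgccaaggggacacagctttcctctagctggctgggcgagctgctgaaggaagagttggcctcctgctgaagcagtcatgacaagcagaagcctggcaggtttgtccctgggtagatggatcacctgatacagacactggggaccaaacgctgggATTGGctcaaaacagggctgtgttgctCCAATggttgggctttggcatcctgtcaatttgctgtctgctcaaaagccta
Acly (chr11:100528001-100528250, minus strand): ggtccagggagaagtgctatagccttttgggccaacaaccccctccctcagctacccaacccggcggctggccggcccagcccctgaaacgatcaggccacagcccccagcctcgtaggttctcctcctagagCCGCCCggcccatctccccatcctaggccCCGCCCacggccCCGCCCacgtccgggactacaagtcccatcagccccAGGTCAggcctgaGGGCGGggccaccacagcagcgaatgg
Elovl5 (chr9:77917115-77917364, plus strand): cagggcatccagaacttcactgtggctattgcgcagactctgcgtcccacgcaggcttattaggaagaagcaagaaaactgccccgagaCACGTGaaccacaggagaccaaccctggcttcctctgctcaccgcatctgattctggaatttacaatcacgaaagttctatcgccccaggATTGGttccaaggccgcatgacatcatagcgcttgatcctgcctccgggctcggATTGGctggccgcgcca

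The E-box was found in 1 of the 9 windows, 161 bases before the start of Elovl5, and in 6.02% of all 32851 windows of this length. The CCAAT box was in 5 of the 9 windows and in 33.8% of all, the GC box in 2 of 9 and 32.7%, and AGGTCA in 2 of 9 and 14.02%. A sterol response element, TCACNCCAC, was in 0 of the 9 windows and in 1.05% of all. The windows of Acacb, Acaca and Fasn and a further window of Me1 lie before a later annotated start and not the first of the gene. The counts therefore do not cover the region before the first start of Acacb, Acaca or Fasn. A match is a run of letters and not a measured site.

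Array medians lay between 95.2 and 110.9 intensity units. The median correlation of a pool with the other pools was 0.984 to 0.990 in CT60 to CT65, with the lowest value at CT61, against 0.989 to 0.995 in CT18 to CT59. For the 10 genes, results that these last 6 pools changed are also given without them. These are spans in fold, tests of level between cycles and calls of a 24 h component in a lead probe set. Counts of level in the gene lists around the pathway are over all pools only. The hepatocyte markers were high throughout, with albumin (Alb) between 697353 and 831266. Of 4 measured adipocyte markers, Adipoq had a median of 55.8 and a highest value of 207. Retn and Lep stayed at or under 71.1, below all array medians, while Fabp4, which endothelial cells and macrophages also express, ranged from 3879 to 9469. The summed adipocyte markers ranged from 4729 to 9685 in the second cycle and from 4045 to 9114 in the first. The summed transcripts of 5 pancreatic acinar markers reached 314322 in the pool of CT25 and 94653 in that of CT46. Of the lowest and highest values of the 10 genes over all pools, 1, the lowest of Elovl6, came from these pools. The lowest of Fasn in CT18 to CT59 and the lowest of Srebf1, given further on, also fell at CT46.

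Log2 intensities were tested in 2 ways. A probe set was called rhythmic with a 24 h period when Fisher's G-test and a cosine fit built after COSOPT both gave a q-value under 0.05 and the fitted period was between 20 and 30 h. By this rule 13 of the 24 probe sets were called, from 7 of the 10 genes, against 10.3% of all probe sets on the array and 19.1% of those with a mean of 100 or more. Read through the probe set of highest mean intensity, the lead probe set used for each gene in the following, Acly, Acacb, Thrsp, Elovl6, Elovl3 and Elovl5 were called. Acaca was called only through its dimmer probe set, and Fasn, Scd1 and Me1 were not called. A limma model then fitted 24, 12 and 8 h cosines beside a straight trend, and 18 of 24 probe sets had a 24 h component at an adjusted p under 0.05, against 47.4% of all and 50.1% of those with a mean of 100 or more. Of the lead probe sets 8 of 10 had one, all but Acaca and Me1, against 52.7% of genes. Amplitude below is the distance from the middle to the peak of the fitted component, in log2 units, with its standard error.

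**Figure D1:**
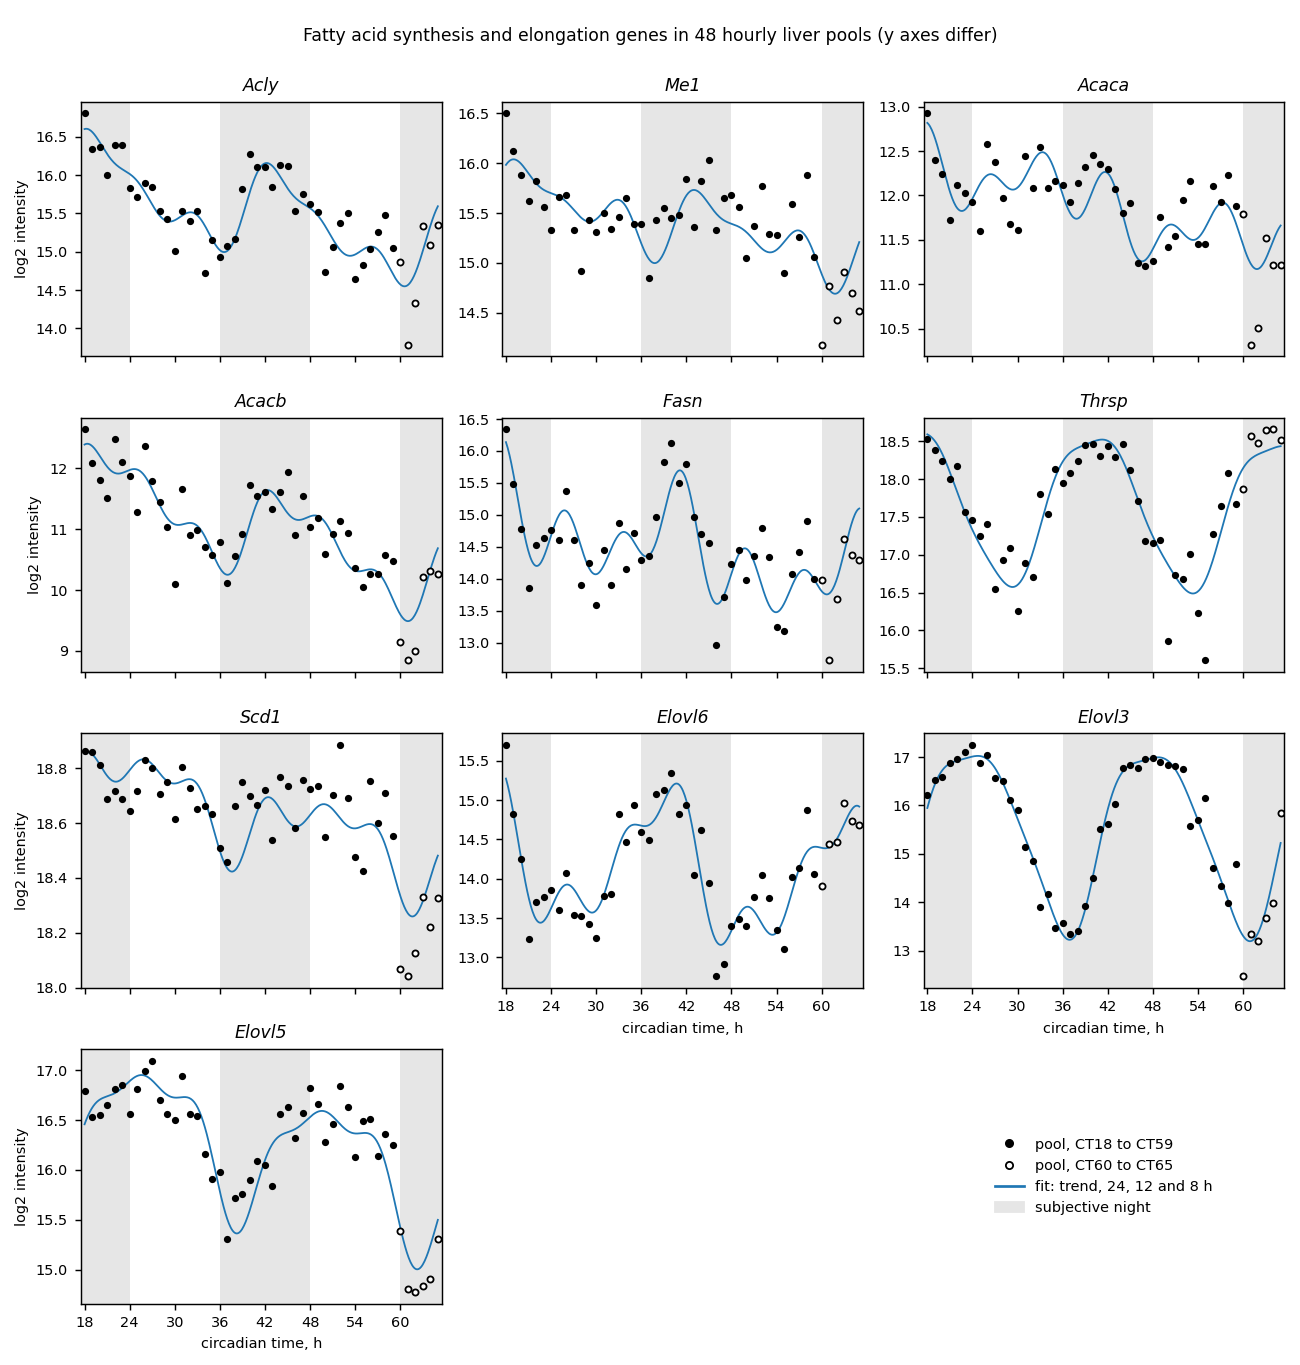
Log2 intensity (vertical axes, which differ between panels) of the lead probe set of each gene in the 48 pools against circadian time in h. Dots are single pools, open dots those of CT60 to CT65, the line is the fit of a trend with 24, 12 and 8 h components, and grey marks subjective night. Elovl3 and Elovl5 were low in the first part of the night, when Elovl6 and Thrsp were high, and CT18 was the highest pool for 6 of the 10 genes.

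The first enzyme, Acly, had an intensity of 14147 at CT61, its lowest, a median of 46775 and 114649 at CT18, its highest. In CT18 to CT59 the lowest was 25554 at CT54. Values were high from the middle to the end of the night and low around CT34 to CT37 and CT54 to CT55. Its 24 h component had an amplitude of 0.45 ± 0.068 (SE), a 1.88-fold difference between peak and trough (95% interval 1.56 to 2.26), and peaked at CT20.6 ± 0.57 h (limma, adjusted p = 5.79e-06). Of its 6 probe sets 4 had the component, with amplitudes from 0.14 to 0.70 and peaks between CT18.5 and CT20.6. The other 2 had means of 77.7 and 58.2, under the array medians. The lead probe set is of the type marked x, whose probes can match other transcripts, and the next brightest probe set, 1451666_at, gave 0.53 ± 0.069 and CT20.3.

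Malic enzyme, Me1, ranged from 18589 at CT60 over a median of 44170 to 92634 at CT18, and in CT18 to CT59 the lowest was 29469 at CT37. No regular daily course stood out against the spread of the pools, and the 24 h amplitude of 0.17 ± 0.072 did not pass the test (limma, adjusted p = 0.116). A second probe set gave 0.17 ± 0.062 (adjusted p = 0.0608). Without CT60 to CT65, however, the component passed, with 0.20 in amplitude, a peak at CT20.0 and an adjusted p of 0.0351.

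The carboxylases differed from each other. Acacb, the isoform at the mitochondrial outer membrane whose malonyl-CoA restrains fatty acid oxidation, had 459.9 at CT61, a median of 1994 and 6396 at CT18, a span of 13.9-fold. In CT18 to CT59 the lowest was 1063 at CT55 and the span 6.01-fold. It was high in the second part of the night and low at midday to dusk in both cycles. Its amplitude was 0.57 ± 0.093, or 2.19-fold between peak and trough (1.70 to 2.83), with a peak at CT22.4 ± 0.58 h (limma, adjusted p = 2.80e-05). Its dimmer probe set had a mean of 78.6, near the background, and no component (adjusted p = 0.672). Acaca, the cytosolic isoform that feeds Fasn, had 1278 at CT61, a median of 3927 and 7771 at CT18, with 2368 at CT47 as its lowest in CT18 to CT59. The pools of CT60 to CT65 weighed on its test. Over all 48 pools the amplitude was 0.20 ± 0.077 (limma, adjusted p = 0.0878), and without CT60 to CT65 it was 0.28 with a peak at CT13.2 and an adjusted p of 0.00263. Leaving out CT61 or CT62 alone also brought the adjusted p below 0.05, to 0.0269 at the lowest. The component depended on the straight trend as well. In a fit without the trend its amplitude over all 48 pools was 0.017 (limma, adjusted p = 0.987). It did not pass in the second cycle alone (adjusted p = 0.333) or in the first alone (adjusted p = 0.285). Its dimmer probe set, 1427595_at, was called by both tests and peaked at CT16.5 ± 0.87 h with an amplitude of 0.21 ± 0.043.

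Fasn, the multi-domain synthase that makes palmitate, had 6765 at CT61, a median of 22192 and 82992 at CT18, a span of 12.3-fold. In CT18 to CT59 the lowest was 7989 at CT46 and the span 10.4-fold. Its highest pools fell in mid-night, with 82992 at CT18, and in the next night 57988 at CT39, 71783 at CT40 and 56769 at CT42. In the last night sampled, CT60 to CT65, the highest pool was lower, 25294 at CT63. Lesser maxima stood at 28378 at CT52 and 30781 at CT58 in the second cycle, and at 42365 at CT26 and 29937 at CT33 in the first. The 24 h component had an amplitude of 0.46 ± 0.099 and a peak at CT16.4 ± 0.88 h (limma, adjusted p = 0.00133), and the 8 h component was as large, 0.49 ± 0.098 (adjusted p = 0.014). Both periodicity tests put its period at 8 h, the cosine fit with a q of 0.0196 and the G-test with a q of 0.169, so it was not called. Unadjusted, neither test was under 0.05, with p = 0.0589 in the cosine fit and p = 0.0867 in the G-test. The cosine q is below its p because the q-value method put the share of probe sets without a rhythm at 0.148. Fasn had a single probe set.

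Thrsp encodes Spot 14, a small protein that accompanies the lipogenic enzymes and responds to thyroid hormone and carbohydrate. Its intensity was 49720 at CT55, with a median of 221831 and a highest value of 414950 at CT64. All pools of CT60 to CT65 lay above its median, at 240108 to 414950, where 8 of the other 9 genes, all but Elovl6, had their lowest pool, as did 36.5% of genes with a mean of 100 or more. The amplitude of 1.001 ± 0.072 amounted to 4.01-fold between peak and trough (3.29 to 4.87), with a peak at CT16.4 ± 0.30 h (limma, adjusted p = 5.97e-14). All 3 probe sets were called by both tests, but they differed in size, 1.44 ± 0.085 in 1422973_a_at and 0.64 ± 0.087 in 1444166_at, and the dimmest of them, 1444166_at, peaked at CT13.4 ± 0.49 h.

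Scd1, which introduces the double bond into palmitate and stearate, moved little. Its lead probe set had 269803 at CT61, a median of 422598 and 484252 at CT52, and in CT18 to CT59 no pool was under 352390. The amplitude was 0.10 ± 0.029, or 1.15-fold between peak and trough (1.06 to 1.24), with a peak at CT1.86 ± 1.07 h (limma, adjusted p = 0.0172). Without CT60 to CT65 the component did not pass (0.05 in amplitude, adjusted p = 0.209). The dimmer probe set, 1415965_at, had a larger amplitude with a larger error, 0.37 ± 0.128 (adjusted p = 0.0483). Values of the lead probe set lay in the upper part of the array's range, which ended at 1218380, and the part of this in its small amplitude was not tested.

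The elongases held both the largest amplitude and the widest spread of peak times. Elovl6, which lengthens palmitate to stearate, had 6937 at CT46, a median of 16906 and 53242 at CT18. It lay between 22633 and 41717 in the pools of CT33 to CT42 and between 9597 and 17256 in those of CT21 to CT32. Its amplitude was 0.81 ± 0.071, or 3.06-fold (2.52 to 3.70), with a peak at CT14.4 ± 0.33 h (limma, adjusted p = 1.73e-11). A second probe set gave 0.80 ± 0.070 and CT14.6, and the third, with a mean of 638.7, gave 0.53 ± 0.145 and CT11.1 and was not called by both tests.

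Elovl3, an elongase of saturated and monounsaturated very long chain fatty acids, had the largest amplitude of the set. It had 5704 at CT60, a median of 60354 and 155683 at CT24, a span of 27.3-fold. The span was 16.4-fold without CT60 and 14.9-fold in CT18 to CT59. The course had a highest value of 129511 at CT48 and a lowest of 5704 at CT60 in the second cycle, against a highest of 155683 at CT24 and a lowest of 10477 at CT37 in the first. Its amplitude was 1.84 ± 0.078, or 12.8-fold (10.4 to 15.8), with a peak at CT0.10 ± 0.15 h (limma, adjusted p = 4.07e-21). By 24 h amplitude Elovl3 ranked 6 of the 18194 genes. Thrsp ranked 84, Elovl6 130, Elovl5 325, Acacb 336, Fasn 591, Acly 618, Acaca 3435, Me1 4096 and Scd1 6847. The median amplitude of the 10 genes was 0.51, against 0.064 over all genes and 0.28 over the 2680 genes called by both tests.

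Elovl5, which lengthens polyunsaturated fatty acids, had 28027 at CT62, a median of 92411 and 140200 at CT27. It stayed high through the day and lay between 40525 and 73355 from CT34 to CT43. Its amplitude was 0.57 ± 0.054, or 2.22-fold (1.92 to 2.56), with a peak at CT2.56 ± 0.36 h (limma, adjusted p = 9.92e-11), and its other probe set gave 0.62 ± 0.054 and CT2.81.

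**Figure D2:**
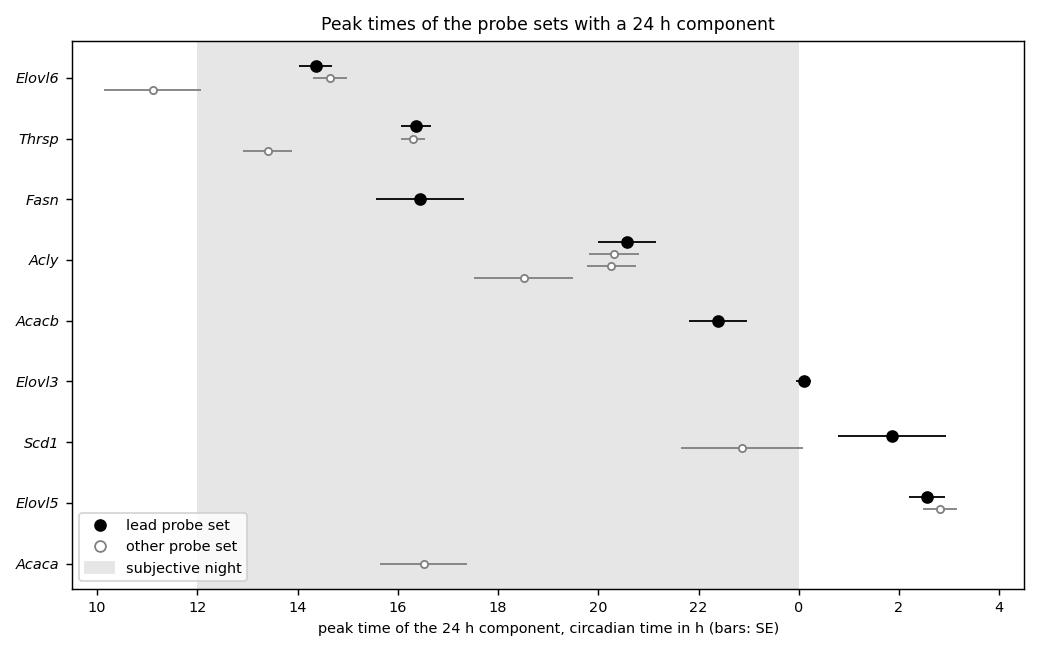
Peak time of the 24 h component, as circadian time in h on the horizontal axis with standard errors, for the 18 probe sets of 9 genes that had the component. Large black dots are lead probe sets, small open dots other probe sets, and grey marks subjective night. Among the lead probe sets Elovl6 came first at CT14.4 and Elovl5 last at CT2.56. The dimmest probe sets shown of Elovl6, Thrsp and Acly lay earlier than the lead of their gene.

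Placed on 1 day, the lead probe sets with a 24 h component peaked in the order Elovl6 at CT14.4, Thrsp and Fasn at CT16.4, Acly at CT20.6, Acacb at CT22.4, Elovl3 at CT0.10, Scd1 at CT1.86 and Elovl5 at CT2.56. Of the 28 pairs among these 8 genes, 25 differed in peak time by an interval that left out 0. Given as the first gene minus the second, the pairs that could not be ordered were Fasn and Thrsp, 0.08 h apart (95% interval -1.60 to 1.77), Scd1 and Elovl3, 1.76 h apart (-0.42 to 3.93), and Scd1 and Elovl5, -0.70 h apart (-2.44 to 1.03). The intervals use the joint covariance of both genes in the same pools. Synthase and elongase of the palmitate to stearate route stood 2.08 h apart, Fasn after Elovl6 (0.59 to 3.58). Acly minus Fasn was 4.13 h (2.45 to 5.81) and Acly minus Acacb -1.82 h (-2.81 to -0.83). The elongases Elovl5 and Elovl6 were nearly opposite, at -11.8 h (-13.0 to -10.6), and Elovl3 minus Elovl5 was -2.46 h (-3.18 to -1.73).

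Over the 48 pools, Acly and Acacb had the highest correlation of log2 values, with Pearson's r = 0.90, then Scd1 and Me1 with 0.85 and Scd1 and Elovl5 with 0.84. The most negative were Elovl3 and Elovl6 with -0.55 and Elovl5 and Thrsp with -0.53. Fasn had 0.45 with Thrsp, whose peak lay 0.08 h from its own, and 0.70 with Acly. After the fitted curves were taken out, Acaca and Fasn had r = 0.83, Acly and Acaca 0.82 and Acly and Fasn 0.81, whereas Elovl3 had -0.34 to 0.29 with the other 9 genes. These correlations are over pools that share mice, array and normalization between genes, and they carry no test.

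Faster components were seen in part of the genes. A 12 h component passed in 5 of the 24 probe sets, against 4.89% of all and 9.61% of those with a mean of 100 or more, namely 2 of Acly, 1 each of Elovl3, Elovl5 and Me1. In Elovl3 it had an amplitude of 0.38 ± 0.072 and peaks at CT6.98 and CT19.0 (limma, adjusted p = 0.00203), next to a 24 h amplitude of 1.84. Its adjusted p stayed between 5.17e-05 and 0.00533 with any pool left out, and was 0.132 on linear values. In Elovl5 it was 0.24 ± 0.053 with peaks at CT8.32 and CT20.3 (adjusted p = 0.0106), and 0.16 without CT60 to CT65 (adjusted p = 0.171). An 8 h component passed in 3 of 24 probe sets, against 1.35% of all and 2.64% of the brighter ones. These were Fasn and 2 probe sets of Elovl6, in which it was 0.31 ± 0.067 (adjusted p = 0.0275) and 0.29 ± 0.067 (adjusted p = 0.037). For Fasn the adjusted p was 0.00596 to 0.0282 with any pool left out and 0.0208 without CT60 to CT65. For the lead probe set of Elovl6 it was above 0.05, at 0.0572 or less, when CT18, CT21, CT30, CT33, CT46 or CT58 was left out, and 0.0647 without CT60 to CT65. The peaks of Fasn were at CT1.54, CT9.54 and CT17.5 and those of the lead probe set of Elovl6 at CT1.75, CT9.75 and CT17.7.

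The 8 h phase was shared beyond the probe sets that passed. In the lead probe sets of all 10 genes the fitted 8 h peak lay between CT1.14 and CT2.90, and in 9 of them, all but Thrsp, at or before CT2.10. Of 11186 genes with a mean of 100 or more, 26.9% had their 8 h peak in the same window, and of the 387 genes with an 8 h component 17.1%. The genes were read in the same pools, so a pool that was high or low for many of them moves all of these phases together. The window was set by the members and is a description.

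**Figure D3:**
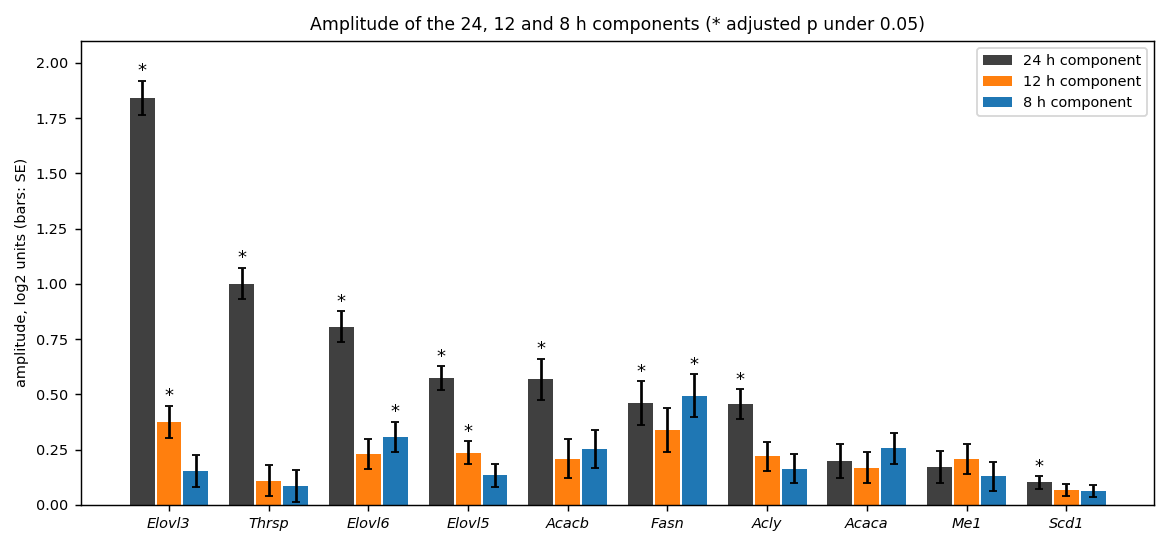
Amplitude in log2 units (vertical axis, bars from 0 with standard errors) of the 24, 12 and 8 h components of each lead probe set, ordered by the 24 h amplitude. A star marks an adjusted p under 0.05. In Fasn the 8 h bar, 0.49, is as high as the 24 h bar, 0.46, and in Elovl3 the 24 h bar of 1.84 stands far above both others.

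The next question was whether the cycles agree. The level at matched hours, second minus first cycle over 24 pairs of pools, was lower in 12 of the 24 probe sets and higher in 0 (limma, adjusted p under 0.05), against 11.2% lower and 42.3% higher of all probe sets and 21.6% lower among those with a mean of 100 or more. The median difference was -0.23 over the 24 probe sets and -0.31 over the 10 lead probe sets, against 0.03 over all probe sets and -0.02 over the brighter ones. At an unadjusted p under 0.05 1 of the 24 was higher, a probe set of Acly with a mean of 77.7. Of the lead probe sets 8 of 10 were lower in the second cycle, against 16.2% lower and 38% higher of genes.

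Acacb had the largest difference, with a median of 1538 in the second cycle and 2858 in the first, lower in 22 of 24 pairs by 0.77 ± 0.129 on the log2 scale (-0.77, adjusted p = 0.000278). For Acaca the medians were 3228 in the second cycle and 4479 in the first (-0.56 ± 0.114, 19 of 24 pairs, adjusted p = 0.00045). Fasn had medians of 20397 in the second cycle and 25173 in the first (-0.56 ± 0.152, 19 of 24 pairs, adjusted p = 0.00362). Read through their lead probe sets, both carboxylases and the synthase were lower in the second cycle. The dimmer probe sets of Acaca (-0.13, limma, adjusted p = 0.0860) and Acacb (-0.10, adjusted p = 0.213) did not pass. Acly had medians of 41504 in the second cycle and 55705 in the first (-0.46 ± 0.094, 21 of 24 pairs, adjusted p = 0.000495). Elovl5 differed by -0.36 ± 0.082, Me1 by -0.27 ± 0.102, Elovl6 by -0.26 ± 0.103 and Scd1 by -0.16 ± 0.042. Thrsp, at -0.10 ± 0.099 (adjusted p = 0.423), and Elovl3, at -0.055 ± 0.101 (adjusted p = 0.666), did not pass, and these were the genes with the largest 24 h amplitudes. The calls of Elovl6 and Me1 were the least firm. They were lost when any of 12 of the 24 pairs was left out for Elovl6, with adjusted p up to 0.0663, and any of 5 pairs for Me1, with adjusted p up to 0.0556.

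In each lead probe set that had passed, the difference was smaller without the last 6 pools. Without CT60 to CT65 and their partners, 7 of 24 probe sets were lower, all of them among the 12. The share of all probe sets in this setting is not given. Fewer pairs also give the test less power, so the lower count by itself is not a result about these genes. Acacb was then at -0.59 (adjusted p = 0.0136), Acaca at -0.38 (0.0166), Acly at -0.35 (0.0165) and Elovl5 at -0.22 (0.0422), while Fasn at -0.34 (0.101), Scd1 at -0.07 (0.110), Elovl6 at -0.22 (0.189) and Me1 at -0.10 (0.441) no longer passed. In CT60 to CT65 against CT36 to CT41, the same hours, the log2 difference was -1.32 in Acacb, -1.23 in Fasn, -1.12 in Acaca, -0.79 in Elovl5, -0.77 in Me1, -0.77 in Acly, -0.44 in Scd1, -0.38 in Elovl6 and -0.29 in Elovl3. Thrsp alone was higher, by 0.21. The median of the 10 genes was -0.77, against 0.05 over all probe sets, and 8.30% of genes with a mean of 100 or more were lower by as much. Quantile normalization left the median of the 10 at -0.71. Over the whole cycle the level differences of Elovl6 (adjusted p = 0.127) and Me1 (0.0878) did not pass after it, and with the pools unpaired those of Elovl5 (0.0669), Elovl6 (0.268) and Me1 (0.0641) did not pass.

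The low values were concentrated at CT61, where Acly, Acaca, Acacb, Fasn and Scd1 had their lowest pool. Of genes with a mean of 100 or more, 15.3% were lowest there. Fasn at CT61 had 6765, against 20871 at CT37, and Thrsp had 388501 at CT61, against 277616 at CT37. The medians of the marker lists were higher by at most 0.07 in CT60 to CT65, apart from that of the endothelial list, which was lower by 0.52 (-0.52), with summed levels of 26640 to 29555 in CT60 to CT65 and 25636 to 28722 in CT36 to CT41. The summed adipocyte markers, mostly Fabp4, were higher, at 6295 to 9685 in CT60 to CT65 against 4692.5 to 6281 in CT36 to CT41. The summed ranges of the other lists overlapped. The part of the endothelial and adipocyte shifts and of the lower array correlation in these results was not tested. In pooled tissue, fewer cells that express a gene and less RNA in each cell cannot be told apart.

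At the other end, the first pool, CT18, was the highest of all 48 for Acly, Acaca, Acacb, Fasn, Elovl6 and Me1, 6 of 10 genes, against 1.75% of genes with a mean of 100 or more. Fasn had 56769 at CT42, 24 h later, against 82992 at CT18. Me1 had 58931 at CT42, against 92634 at CT18. The pool of CT18 had a median correlation of 0.994 with the others, within the range of the other pools. What set this pool apart in these genes was not tested.

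**Figure D4:**
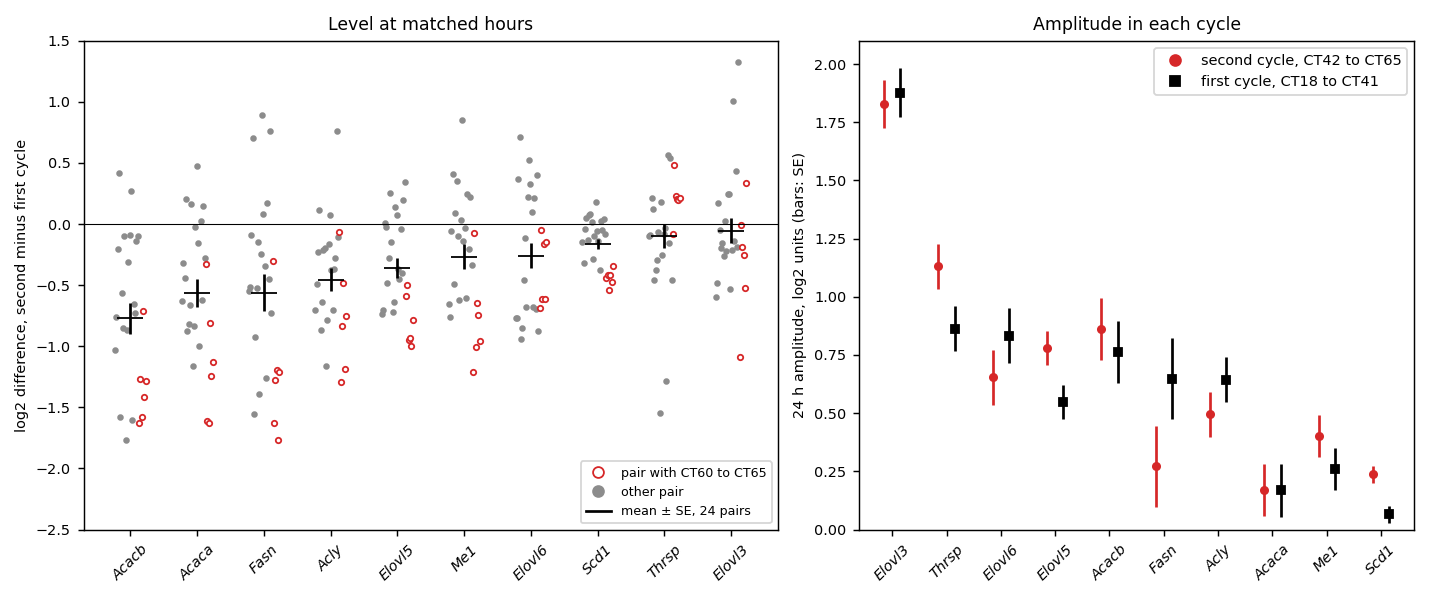
Left, log2 difference (vertical axis) at matched hours, second minus first cycle, for the lead probe set of each gene, with single pairs as dots, pairs that hold CT60 to CT65 as open red dots, and mean ± SE over 24 pairs in black. Right, 24 h amplitude in log2 units ± SE in the second cycle (red) and the first (black). Acacb lies lowest with a mean of -0.77, Elovl3 nearest to 0, and the amplitudes of Elovl3, 1.83 in the second cycle and 1.88 in the first, overlap within their errors.

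Amplitude and phase were compared between cycles by the interaction of cycle with the 24 h component. It passed in 2 of 24 probe sets, against 3.37% of all, 1 of Scd1 and 1 of Acly, neither of them the lead. Elovl3 had an amplitude of 1.83 ± 0.104 and a peak at CT0.31 in the second cycle, and 1.88 ± 0.104 and CT23.9 in the first. Thrsp had 1.13 ± 0.097 and CT16.2 in the second cycle, and 0.86 ± 0.097 and CT16.8 in the first. Elovl6 had 0.65 ± 0.118 and CT14.4 in the second cycle, and 0.83 ± 0.118 and CT14.9 in the first. The interaction did not pass for these lead probe sets (limma, adjusted p = 0.592 for Elovl3, 0.367 for Thrsp and 0.672 for Elovl6). Fasn was less settled, with 0.27 ± 0.174 and CT19.3 ± 2.46 h in the second cycle, and 0.65 ± 0.174 and CT17.5 ± 1.03 h in the first. This difference did not pass either (adjusted p = 0.509).

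Among the genes around the pathway, regulators were rhythmic in part. Of 13 measured regulators, 5 were called by both tests and 10 had a 24 h component, against 14.7% and 52.7% of genes. Insig2, which holds SREBP in the endoplasmic reticulum, had an amplitude of 1.19 ± 0.058 and a peak at CT0.36 ± 0.17 h, where Elovl3 had CT0.10 ± 0.15 h. Ppargc1b, a coactivator of SREBP, had 1.01 ± 0.080 and CT7.99, the SREBP escort Scap 0.47 ± 0.064 and CT5.17, and Ppard, a nuclear receptor, 0.38 ± 0.075 and CT22.9. Ppard was near the background, with a mean of 105.6 and a median of 86.85, the latter under the array medians. Srebf1 itself, with 7313 at CT46, a median of 23760 and 43108 at CT58, had an amplitude of 0.24 ± 0.095 that did not pass (limma, adjusted p = 0.0869), and Mlxipl had 0.40 ± 0.106 at CT2.95 (adjusted p = 0.0105) without a call by both tests. Over all pools, 6 of the 13 were lower in the second cycle in limma and 0 higher, also 0 at an unadjusted p under 0.05, against 16.2% lower and 38% higher of genes.

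Of 7 measured genes of carbon and NADPH supply, 4 were called and 6 had a 24 h component, against the same 14.7% and 52.7% of genes. The 4 called were Acss2, which makes acetyl-CoA from acetate, with 0.41 ± 0.052 at CT0.36, the pyruvate dehydrogenase subunit Pdhb with 0.19 ± 0.024 at CT14.2, citrate synthase (Cs) with 0.33 ± 0.051 at CT2.77, and Pgd of the pentose phosphate pathway with 0.26 ± 0.048 at CT23.2. In the second cycle 5 of the 7 were lower and 1 was higher, Idh1, named after its values were seen, against 16.2% and 38% of genes. Among 15 other elongases, desaturases and partners of elongation, 3 were called, Elovl1 at CT21.4, the ketoacyl reductase Hsd17b12 at CT23.5 and the dehydratase Hacd3 at CT11.8, with amplitudes of 0.34, 0.14 and 0.11, and 7 had a 24 h component, shares of the 15 that lay near the 14.7% and 52.7% of genes. In the second cycle 4 were lower and 4 higher, against 16.2% and 38% of genes.

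Of 5 genes of mitochondrial fatty acid synthesis, a separate route, 2 were called, Oxsm at CT2.89 and Cbr4 at CT11.1, against 14.7% of genes, and both amplitudes were under 0.20. Malonyl-CoA use and fatty acid activation gave the highest share, with 6 of 7 called and 6 with a 24 h component, against 14.7% and 52.7% of genes. Cpt1a, the step of fatty acid entry into mitochondria that malonyl-CoA inhibits, had an amplitude of 0.58 ± 0.069 and peaked at CT9.45 ± 0.44 h. The acyl-CoA synthetases Acsl4 and Acsl5 had 0.32 ± 0.028 at CT18.6 and 0.21 ± 0.024 at CT0.68, and the thioesterase Acot1 0.47 ± 0.067 at CT18.8.

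Over the 48 pools and 11186 genes, the genes with log2 values most like those of Fasn were Slc25a44 with r = 0.82, Pklr with 0.80, Snrk with 0.78, Adgra3 with 0.78 and Ywhag with 0.77. None of these 5 was called by both tests. Pklr, liver pyruvate kinase, a known target of ChREBP, had a 24 h amplitude of 0.37 ± 0.056 and a peak at CT16.9. For Elovl3 they were Insig2 with 0.96, Clpx with 0.96, Rnf125 with 0.96, C730049O14Rik with 0.95 and Tars with 0.94, all called, with peaks between CT23.2 and CT0.73. The likeness is that of the pools as measured and has no test.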

How the data were processed

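Liver RNA of 48 hourly pools was read on 1 array each. The deposited values are probe set intensity on a linear scale, extracted by the authors with GCRMA in R per their methods. GEO's processing notes also name MAS5, and which of these made the deposited table was not settled. The table ranges from 20.6 to 1.21838e+06, and 0 pairs of arrays were identical. Gene symbols came from the platform annotation. All tests ran on log2 values.

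The G-test of Fisher covered 23 Fourier frequencies. After removal of a straight trend, cosines of 4 to 30 h in steps of 0.1 h were fitted, with p from 1000 scramblings. Storey q-values were computed for both. Harmonics, interactions of cycle and component, and paired levels were tested in limma 3.58.1 (R 4.3.3) with Benjamini-Hochberg adjustment over 45101 probe sets. Standard errors of peak times came from the coefficients. Other steps ran in Python 3.11.15 (matplotlib 3.10.9, scipy 1.17.1, pandas 2.3.3, numpy 2.4.6). The tests were checked on simulated rhythms.

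All 10 members were named, and in each list the 4 called genes with the smallest G-test p, with Srebf1, Mlxipl, Insig2 and Cpt1a. Members and lists were chosen with earlier results of these data known. Some listed genes were not analysed here. Alternatives were linear values, quantile normalization, a mean of 100 or more, CT60 to CT65 left out, other trends and harmonics, each cycle alone, unpaired levels, the median over probe sets and each pool or pair left out in turn. The number of arrays, 1 per hour, limits the precision, and whether pools of an hour would repeat is not known, so p-values measure the spread of these pools.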

Additional observations from a re-analysis of the deposited data

Results flagged for a closer look

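The 24 h component differed between the cycles in 2 of the 24 probe sets, against 3.37% of all, by the interaction of cycle and component in limma. The dimmer probe set of Scd1, 1415965_at, had an amplitude of 0.83 ± 0.139 and a peak at CT0.73 ± 0.63 h in the second cycle, and 0.42 ± 0.139 and CT19.0 ± 1.26 h in the first (adjusted p = 0.0144). Its lead probe set had 0.24 ± 0.037 at CT1.56 in the second cycle and 0.07 ± 0.037 at CT23.2 in the first, which did not pass (adjusted p = 0.0782). The probe set 1425326_at of Acly had 0.79 ± 0.103 and CT22.4 ± 0.50 h in the second cycle, and 0.97 ± 0.103 and CT19.6 ± 0.41 h in the first (adjusted p = 0.0203). The lead probe set of Acly, at CT21.7 in the second cycle and CT20.9 in the first, did not pass (adjusted p = 0.6). Without CT60 to CT65, 0 of the 24 probe sets passed in limma and 1 had an unadjusted p under 0.05. Over all pools 7 of 24 had one. The shares of all probe sets at this unadjusted threshold, and those without CT60 to CT65, are not given. These counts therefore do not show whether the 24 probe sets differ from the array.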

How the results depend on the processing

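Of the 24 probe sets, those with a 12 h component numbered 8 when only probe sets with a mean of 100 or more were tested and 2 without CT60 to CT65, against 5. Those with an 8 h component numbered 1 with linear values and 1 without CT60 to CT65, against 3. The interaction of cycle and 24 h component passed in 0 without CT60 to CT65, in 1 with 24 h pairs alone and in 1 with a linear trend within each cycle, against 2. Levels differed between cycles in 7 without CT60 to CT65, against 12. With 1 pool or pair left out, the counts ran from 17 to 19 for 24 h, 3 to 6 for 12 h, 1 to 3 for 8 h (1 without CT18, CT21, CT30, CT33, CT46 or CT58), 2 to 3 for the interaction and 10 to 15 for the level. The calls with a 24 h period, 13 by both tests, ranged from 12 to 14 over 7 alternatives. Among these was the G-test alone, which also gave 13. No level difference that passed its test changed sign under these alternatives. The level difference of Elovl3, -0.055, was 0.02 without CT60 to CT65, and that of Thrsp, -0.10, was 0.00081 on linear values, none of which passed. Of the genes with a 24 h component, Acly, Acacb and Fasn did not pass in the second cycle alone, and Acacb and Scd1 not in the first alone, where the fitted peak of Scd1 was CT14.2 (adjusted p = 0.979), against CT1.86 over both. The cause of these changes was not tested.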
